A study of Mus musculus with 18 samples.

Results

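The myeloid C-type lectin receptors described here were 10 genes, Clec4d, Clec4e, Clec4n, Clec7a, Clec10a, Mgl2, Clec4a1, Clec4a2, Clec4a3 and Clec12a, taken by name from the 49585 genes of the count table and followed across all 18 libraries. All 10 were matched to 1 Ensembl gene each and all 10 passed the filter on low counts. C-type lectin receptors are surface proteins whose extracellular domain binds sugars, glycolipids or products of damaged cells, and myeloid cells such as macrophages, monocytes, neutrophils and dendritic cells use them to sense microbes and dying cells. Some of them pass on an activating signal through the adaptor FcRgamma (gene Fcer1g) or a tyrosine motif of their own, the kinase SYK and the adaptor CARD9, which leads to NF-kB and cytokine genes. Others carry an inhibitory tyrosine motif that recruits phosphatases, and the galactose-type lectins mainly take up glycoproteins.

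The libraries were bulk RNA-seq of CD45+ leukocytes (cells of the blood lineage) from mice of the Kaede strain, whose photoconvertible protein turns from green to red under violet light and so tags the cells present in a tissue at that moment. Recipient mice aged 6 to 10 weeks were given OT-II Th1 cells, immunized with ovalbumin in complete Freund's adjuvant and challenged 10 days later with 100 µg of heat-aggregated ovalbumin in the footpad (joint) or the ear pinna (skin). The site was photoconverted on day 3, and red cells were sorted 24 hours later from the site itself (nonmigrated) or from its draining lymph node (migrated), with 8 to 18 male and female mice pooled per library. The steady-state groups were labelled as cells that had migrated from the joint or ear to the node, without mention of inflammation. The transfer, immunization, challenge, photoconversion and pool size described above are those of the inflamed groups. The sources used here do not state them for the steady-state libraries. Each of the 6 groups held 3 libraries. The sample names of the joint steady-state libraries carry "PBS" and "KG", whereas those of the skin steady-state libraries carry "Naive". PBS was the vehicle of the control challenge in the study's methods, which describe it for footpad and ear alike. The meaning of "KG" and whether the mice named "Naive" were given the vehicle are not stated in the sources used here, so handling and site cannot be told apart in the steady-state groups. Inflammation also cannot be told apart from the handling of the mice or the sort when inflamed and steady-state groups are compared. In bulk libraries, fewer cells of a type and less RNA per cell cannot be told apart either.

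Libraries held 19239531 to 43814403 assigned counts, and every inflamed skin library was smaller than every other library. Inflamed skin libraries held at most 22528895 counts and all others at least 28577566. Reads in no gene made up 0.09246 to 0.1351% in the inflamed skin libraries and 0.2266 to 0.5619% in all others. Whether these libraries were prepared or sequenced apart is not stated in the sources used here. Such a technical difference cannot be told apart from site among the inflamed groups, or from inflammation in the skin-draining node. A count of 3, taken as the floor, corresponded to 0.0616 to 0.18 CPM (the read count relative to the library's total, scaled by the trimmed mean of M values) and covers counting error only. Ptprc, which encodes CD45, was at 1156 to 2531 CPM in all 18 libraries. The summed level of 10 monocyte and macrophage markers was 18850 to 23770 CPM in joint nonmigrated libraries and 703.6 to 817.1 CPM in joint migrated ones. In the skin the same sum was 3836 to 12360 CPM in nonmigrated and 756.1 to 1102 CPM in migrated libraries. The summed level of 8 neutrophil markers was 5738 to 17360 CPM in joint nonmigrated, 1565 to 2764 CPM in skin nonmigrated, 40.63 to 102.8 CPM in joint migrated and 16.93 to 34.09 CPM in skin migrated libraries. Skin nonmigrated replicate 3 stood apart from its group, with the highest monocyte and macrophage sum (12360 CPM against 4922 and 3836) and the lowest T cell sum (261.1 CPM against 625.9 and 695.4), and results that rest on it are given with and without it. The summed level of 7 non-leukocyte markers was between 50.06 and 429.6 CPM in all 18 libraries, and the keratin genes Krt5 and Krt14 were at 0 in all 6 steady-state libraries.

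The 10 genes lay in 3 groups on the genome (GRCm38). Clec4a1, Clec4a3, Clec4a2, Clec4n, Clec4d and Clec4e formed a cluster at chr6:122921848-123289870, 368.0 kb long. Clec12a and Clec7a lay farther along the same chromosome at chr6:129342691-129472779, and Mgl2 and Clec10a were neighbours at chr11:70130329-70170834. None of the 10 shared exonic bases with an overlapping gene. Clec7a carries the biotype polymorphic pseudogene in GENCODE M21 and was counted like the others. Reads with more than 1 alignment were not counted by the authors' method, and 2.64% of the 100-base windows of Clec10a transcripts and 3.95% of those of Mgl2 were shared between these 2 genes. Clec4a2 shared 2.14% of its windows with Clec4a4, and the other 7 genes shared none with any other gene. Levels of Clec10a, Mgl2 and Clec4a2 are uncertain to that extent.

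Promoter windows of 250 bases before the transcription start were taken from RefSeq (GRCm38.p6), which gave windows for 8 of the 10 genes (Clec4n and Clec10a had no entry). Shown are those of Clec4d and Clec4e, neighbours that had the largest falls from nonmigrated to migrated cells, and Clec4a1, a gene of the same cluster that was not higher in the skin. Each is written 5′ to 3′ on the strand of the gene and ends at the base before the start. Capitals mark matches, on either strand, to TTNNGNAA (the C/EBP type), GGGA and CC with 4 bases between them (the NF-kB type) and TATAAA, where N is any base.

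Clec4d: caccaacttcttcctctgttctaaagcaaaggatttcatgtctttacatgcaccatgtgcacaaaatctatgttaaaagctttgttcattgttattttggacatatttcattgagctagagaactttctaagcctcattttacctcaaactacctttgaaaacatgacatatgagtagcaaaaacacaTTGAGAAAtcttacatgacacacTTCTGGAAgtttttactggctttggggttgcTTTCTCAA

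Clec4e: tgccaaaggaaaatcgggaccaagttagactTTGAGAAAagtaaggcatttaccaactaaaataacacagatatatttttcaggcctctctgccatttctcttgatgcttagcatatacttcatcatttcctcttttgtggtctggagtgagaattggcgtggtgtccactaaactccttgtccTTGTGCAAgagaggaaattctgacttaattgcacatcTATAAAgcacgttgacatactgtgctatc

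Clec4a1: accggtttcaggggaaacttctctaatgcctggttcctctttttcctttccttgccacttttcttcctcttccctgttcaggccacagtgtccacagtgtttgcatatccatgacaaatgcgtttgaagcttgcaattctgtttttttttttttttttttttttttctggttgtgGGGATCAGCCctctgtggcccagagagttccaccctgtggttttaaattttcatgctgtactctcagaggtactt

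The windows are chr6:123261857-123262106 (plus strand) for Clec4d, chr6:123289872-123290121 (minus strand) for Clec4e and chr6:122921598-122921847 (plus strand) for Clec4a1. Clec4d held 3 matches to the C/EBP type, 62, 39 and 8 bases before the start, and Clec4e held 2, at 219 and 66 bases, beside TATAAA at 29 bases. The window of Clec4a1 held no C/EBP-type match and 1 NF-kB-type match. The 8 genes had 10 windows, as Clec4a3 and Clec7a had more than 1. Of these 10 windows, 5 held at least 1 C/EBP-type match (Clec4d, Clec4e, Clec4a2, Clec12a and Mgl2). So did 36.8% of 32851 promoter windows of the same length over all genes. In Clec4a2 its 2 matches overlapped each other. NF-kB-type matches were present in Clec4a1 and Mgl2 (17.6% of all windows) and TATAAA in Clec4e and Clec4a2 (12.4% of all windows). TGANTCA (the AP-1 type, 6.75% of all windows) matched only Clec12a of the 8, TTCNNNGAA (the STAT type, 7.02%) only Clec4a2, and GAGGAAGT (the PU.1 type, 2.44%) none. These are matches of letters, with no measurement of binding.

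All 10 genes were highest in the nonmigrated cells of the inflamed tissues. The plot of each gene's level by library shows that no lymph-node library reached the lowest nonmigrated library for any of the 10.

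**Figure D1:**
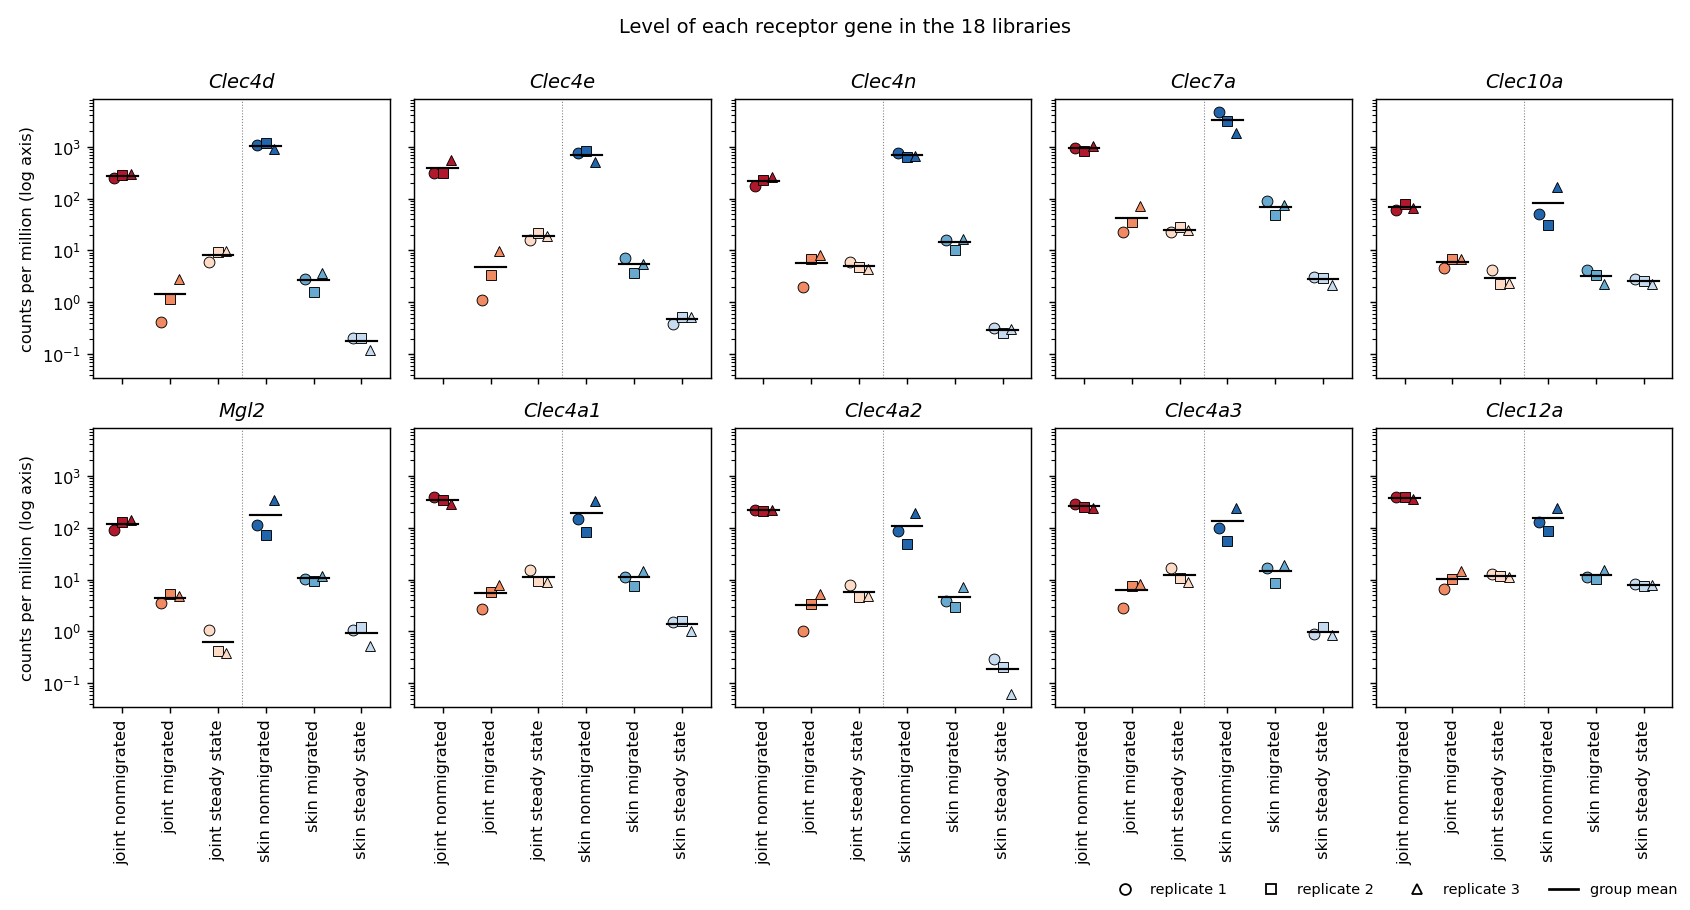
Level of each receptor gene in CPM (vertical log axis, shared by all panels) in the 6 groups (horizontal axis), with 1 point per library shaped by replicate number and a bar at the group mean. Every nonmigrated library, of joint or skin, lies above every lymph-node library for all 10 genes, and the skin steady-state libraries fall below 1 CPM for Clec4d, Clec4e, Clec4n and Clec4a2.

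The summed level of the 10 genes was 3206 ± 202 CPM (mean ± SD, n = 3) in joint nonmigrated cells and 6480 ± 1270 CPM in skin nonmigrated cells. It was 90.68 ± 46.1 CPM in joint migrated, 148.8 ± 37.9 CPM in skin migrated, 102 ± 7.42 CPM in joint steady-state and 17.65 ± 1.72 CPM in skin steady-state cells. The order of the groups below the nonmigrated ones differed between genes. Clec4d and Clec4e had the joint steady state as the next group (8.294 and 18.87 CPM, means), above skin migrated (2.705 and 5.392 CPM) and joint migrated cells (1.462 and 4.829 CPM), and the 2 migrated groups overlapped. Clec4a1 and Clec4a2 also had the joint steady state next, but there it overlapped skin migrated cells. Clec4n, Clec7a, Mgl2, Clec4a3 and Clec12a had skin migrated cells next, and Clec10a had joint migrated cells next. Skin steady-state cells were lowest for 9 of the 10 genes and did not overlap the group above them for Clec4d, Clec4e, Clec4n, Clec7a, Clec4a1, Clec4a2 and Clec4a3. They overlapped joint steady-state cells for Clec10a, joint migrated cells for Clec12a, and joint steady-state cells for Mgl2, the gene for which the joint steady state was lowest.

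Compared per kilobase of exon, Clec7a, which encodes the beta-glucan receptor Dectin-1, had the highest level of the 10 in 5 of the 6 groups. It reached 1225 ± 536 CPM per kb in skin nonmigrated and 356.9 ± 37.5 CPM per kb in joint nonmigrated cells, which was 42.4% and 25.5% of the summed level per kb of the 10 genes. In skin steady-state cells Clec12a was first instead, at 1.431 ± 0.0663 CPM per kb against 1.048 ± 0.198 CPM per kb for Clec7a. The order of the other genes was not the same at the inflamed sites. In joint nonmigrated cells Clec4a1 (217.1 ± 31.5 CPM per kb) and Clec4a3 (194 ± 19.8 CPM per kb) came after Clec7a. In skin nonmigrated cells Clec4d (650.1 ± 83.7 CPM per kb) and Clec4n (479.5 ± 50.6 CPM per kb) held those places.

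Cells that had migrated from the joint had less RNA of every one of the 10 receptors than cells that stayed. All 10 were called lower (adjusted p under 0.001 and an absolute log2 fold change above 1 in edgeR's quasi-likelihood test), where 12.6% of the 16777 genes tested were called lower. Their median log2 fold change was −5.33 beside 0.02 over all genes tested, and joint migrated and nonmigrated libraries did not overlap for any of the 10. The share of all genes tested without such overlap was not counted, for this or any other comparison. The plot of migration changes gives each gene's estimate at both sites.

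**Figure D2:**
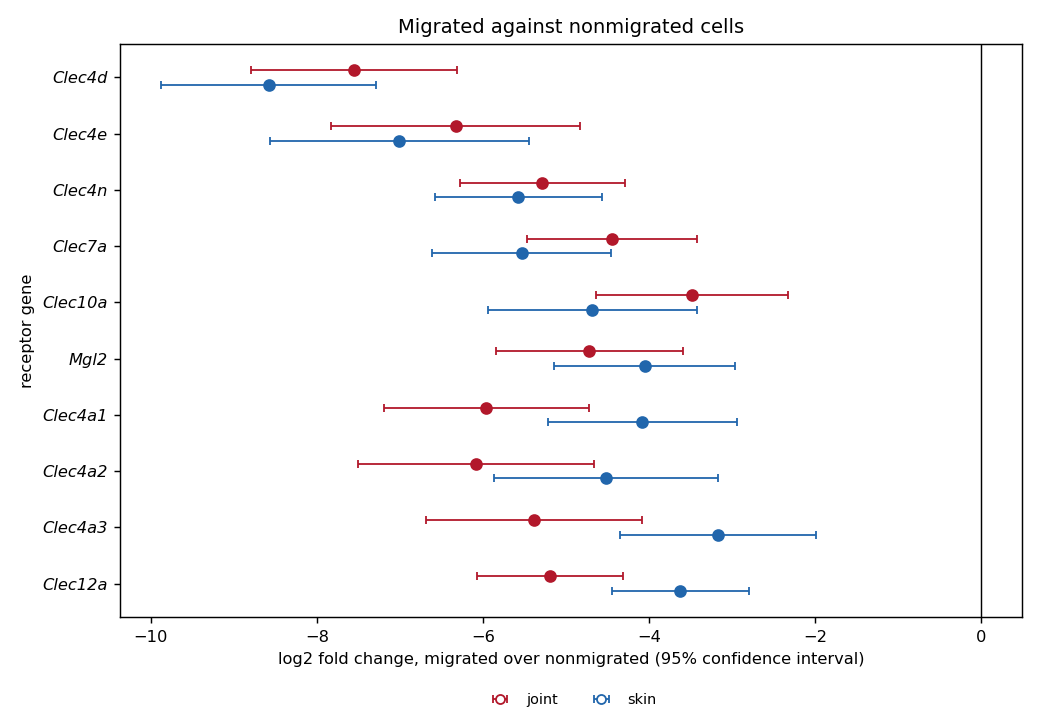
Log2 fold change of migrated over nonmigrated cells (horizontal axis) with its 95% confidence interval for each receptor gene (vertical axis), in the joint (red) and the skin (blue), where filled points passed the threshold. All 20 points are filled and lie below −3, from −8.58 for Clec4d in the skin to −3.17 for Clec4a3 in the skin.

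The activating receptors showed the widest range of changes. Clec4d encodes MCL (also called Dectin-3), a partner of Mincle in sensing mycobacterial glycolipid. It was at 249.2, 284.4 and 294.8 CPM in joint nonmigrated replicates 1 to 3 and at 0.4107, 1.168 and 2.809 CPM in joint migrated ones. Every nonmigrated library was far above every migrated one, and the log2 fold change was −7.56 (SE 0.567, adjusted p = 1.31e-06), a 188-fold lower level. Joint migrated replicate 3 had the highest level of its group, and without it the log2 fold change was −8.43. Clec4e encodes Mincle, the receptor for mycobacterial cord factor and for a protein of dead cells. It was at 312.1, 305 and 551.5 CPM in nonmigrated and 1.129, 3.411 and 9.948 CPM in migrated joint libraries, and fell by 6.33 on the log2 scale (SE 0.686, adjusted p = 1.55e-05), or by 7.40 without joint migrated replicate 3.

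Clec4n, which encodes the mannan receptor Dectin-2, was at 172.8, 227.3 and 261.9 CPM in nonmigrated and 1.951, 6.798 and 8.212 CPM in migrated joint libraries. It was 39-fold lower in migrated cells (log2 fold change −5.29, SE 0.455, adjusted p = 3.21e-06). Clec7a, the most abundant of the 10 per kilobase, was at 957.7, 835.3 and 1031 CPM in nonmigrated and 22.91, 34.81 and 71.35 CPM in migrated joint libraries. Its fall was smaller than those of Clec4d, Clec4e and Clec4n, at −4.45 (SE 0.467, adjusted p = 1.26e-05), although this order between genes was not tested. In all 4 activating receptors joint migrated replicate 1 was the lowest and replicate 3 the highest library of its group. The same order held for Clec4a1, Clec4a2, Clec4a3 and Clec12a.

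Of the DCIR group, Clec4a2 encodes a receptor with an inhibitory motif, and Clec4a1 and Clec4a3 are its close relatives. Clec4a1 was at 383.7, 344.9 and 286.3 CPM in nonmigrated and 2.731, 5.864 and 7.697 CPM in migrated joint libraries. Clec4a2 was at 221.3, 212.3 and 215.1 CPM and at 1.027, 3.387 and 5.146 CPM, and Clec4a3 at 286.5, 250 and 235.6 CPM and at 2.772, 7.592 and 8.126 CPM. The 3 genes fell together, by 5.96 (SE 0.564) for Clec4a1, 6.08 (SE 0.651) for Clec4a2 and 5.38 (SE 0.594) for Clec4a3 on the log2 scale. Clec12a, which encodes the inhibitory receptor MICL for uric acid crystals, was at 392.2, 391.8 and 355.6 CPM in nonmigrated and 6.632, 10.09 and 14.39 CPM in migrated joint libraries (log2 fold change −5.19, SE 0.401, adjusted p = 1.57e-06).

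The galactose-type lectins, which bind galactose and N-acetylgalactosamine, had the lowest levels per kilobase of the 10 in joint nonmigrated cells. Mgl2 was at 88.34, 126.8 and 138.1 CPM in nonmigrated and 3.449, 5.186 and 4.738 CPM in migrated joint libraries (log2 fold change −4.72, SE 0.514, adjusted p = 1.6e-05). Clec10a (also called MGL1) was at 60.33, 78.95 and 66.25 CPM and at 4.579, 6.915 and 6.818 CPM. Its change was the smallest of the 10 in the joint, at −3.49 (SE 0.528, adjusted p = 0.000182). This call was lost, with adjusted p = 0.00115 to 0.00138, when any 1 of the 3 joint migrated libraries was left out. Monocyte, macrophage and neutrophil markers fell with the 10 genes, as given above. The summed level of 8 dendritic cell markers was higher in joint migrated (2458 to 5893 CPM) than in joint nonmigrated libraries (571.8 to 650.8 CPM). Of these 8 markers, 5 were called higher, 1 was called lower and 2 were not called. Over all 16777 genes tested, 3586 were called in either direction. The part of these cell types in the falls was not tested.

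In the skin the direction was the same for all 10 genes. All 10 were called lower in skin migrated than in skin nonmigrated cells, where 12.4% of the 16777 genes tested were called lower, and again no gene's libraries overlapped. Their median log2 fold change was −4.60 beside 0.01 over all genes tested. The activating receptors had the largest falls here. Clec4d was at 1076, 1151 and 891.2 CPM in nonmigrated and 2.794, 1.598 and 3.723 CPM in migrated skin libraries, 383-fold lower (log2 fold change −8.58, SE 0.592, adjusted p = 6.57e-07). Clec4e was at 753.8, 811.9 and 513.5 CPM and at 7.079, 3.646 and 5.452 CPM (log2 fold change −7.01, SE 0.712). Skin nonmigrated replicate 3 was the lowest of its group for both genes, and yet far above every migrated library.

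Clec4n was at 762.7, 628.5 and 651.3 CPM in nonmigrated and 16.11, 10.14 and 16.67 CPM in migrated skin libraries (log2 fold change −5.58, SE 0.46). Clec7a was at 4668, 3184 and 1843 CPM and at 87.74, 47.95 and 74.6 CPM (log2 fold change −5.53, SE 0.492). Its nonmigrated libraries differed by more than those of Clec4n. Clec12a was at 125.9, 87.11 and 236.6 CPM in nonmigrated and 11.04, 10.04 and 15.42 CPM in migrated skin libraries, a change of −3.62 (SE 0.376).

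The DCIR genes, the galactose-type lectins and Clec12a shared a pattern among the skin nonmigrated libraries, in which replicate 3 was highest and replicate 2 lowest. Clec4a1 was at 145.9, 83.55 and 331.7 CPM in nonmigrated and 11.04, 7.342 and 14.72 CPM in migrated skin libraries. Clec4a2 was at 86.21, 48.06 and 189.9 CPM and at 3.819, 2.997 and 7.225 CPM, and Clec4a3 at 96.29, 55.54 and 243 CPM and at 16.35, 8.741 and 18.84 CPM. Their log2 fold changes were −4.08 (SE 0.52), −4.52 (SE 0.616) and −3.17 (SE 0.539). Without skin nonmigrated replicate 3 these were −3.37, −3.83 and −2.37 and all 3 stayed called. Clec4a3 lost its call when any 1 of the 3 skin migrated libraries was left out (adjusted p = 0.00159 to 0.00263).

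Clec10a was at 49.91, 31.05 and 169.3 CPM in nonmigrated and 4.191, 3.296 and 2.261 CPM in migrated skin libraries (log2 fold change −4.68, SE 0.575). Mgl2 was at 111.1, 72.09 and 339.8 CPM and at 10.34, 9.24 and 11.88 CPM (log2 fold change −4.05, SE 0.498). Both changes shrank without skin nonmigrated replicate 3, to −3.64 and −3.13, and both stayed called. When the 2 skin groups were fitted alone, Clec10a, Mgl2 and Clec4a3 lost their calls, at adjusted p = 0.00147, 0.00135 and 0.00341.

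Whether the falls differed between joint and skin was tested as the interaction of site and migration. None of the 10 genes was called, by edgeR or by DESeq2, where edgeR called 0.119% of the 16777 genes tested in either direction and DESeq2 called 661. At an unadjusted p under 0.05 stood 3 of the 10 and 26.3% of all genes tested. Those 3 were Clec4a1, Clec4a3 and Clec12a, with estimates of −1.88 (95% confidence interval −3.33 to −0.43), −2.22 (−3.79 to −0.65) and −1.57 (−2.63 to −0.51), a larger fall in the joint. Their adjusted p was 0.103, 0.0801 and 0.0698. The activating receptors had positive estimates, from 0.29 for Clec4n (−0.91 to 1.48) to 1.08 for Clec7a (−0.18 to 2.34), whose intervals include differences of more than 1 on the log2 scale. Without skin nonmigrated replicate 3 none of the 10 was called either, and Clec4a1, Clec4a3 and Clec12a were at −2.58, −3.01 and −2.06. Over all edgeR fits that left out 1 library, their adjusted p ran from 0.00653 to 0.218, 0.00432 to 0.183 and 0.004 to 0.164. That of Mgl2 ran from 0.00652 to 0.796.

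Among cells that stayed at the inflamed site, none of the 10 genes was called between joint and skin at the threshold of 0.001, where 3.05% of the 16777 genes tested were called in either direction. At an adjusted p under 0.05 with the same fold threshold, Clec4d, Clec4n and Clec7a were lower in the joint than in the skin (8.86% of genes tested were lower at that threshold) and Clec12a was higher (5.45% were higher), and these 4 of the 10, a share close to the 40.5% of all genes tested, had an unadjusted p under 0.05. The same 4 genes were called at 0.001 by DESeq2, which called 1550 of the 16777 genes tested. The plot of joint against skin for nonmigrated cells shows both groups of genes and the effect of 1 library.

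**Figure D3:**
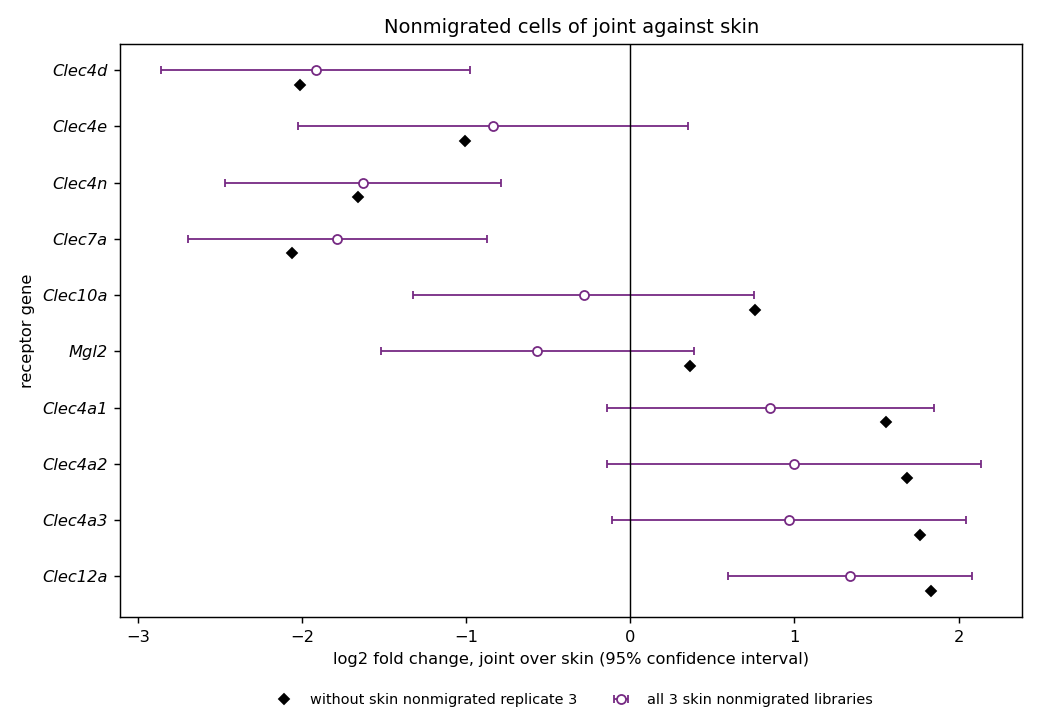
Log2 fold change of joint over skin nonmigrated cells (horizontal axis) with its 95% confidence interval for each receptor gene (vertical axis, open circles), and the same estimate without skin nonmigrated replicate 3 (black diamonds). The 4 activating receptors lie below 0 with and without that library, Clec4a1, Clec4a2, Clec4a3 and Clec12a lie above 0, and Clec10a and Mgl2 change sign.

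Clec4d was 3.77-fold lower in the joint (log2 fold change −1.92, SE 0.431, adjusted p = 0.0077), Clec7a 3.44-fold lower (−1.78, SE 0.417, adjusted p = 0.00927) and Clec4n 3.09-fold lower (−1.63, SE 0.385, adjusted p = 0.00984). For these 3 genes every joint library was below every skin library. Clec4e, the neighbour of Clec4d, was at −0.84 with an interval of −2.02 to 0.35, and its joint and skin libraries overlapped because joint replicate 3 (551.5 CPM) was above skin replicate 3 (513.5 CPM). In the other direction, Clec12a was 2.53-fold higher in the joint (log2 fold change 1.34, SE 0.34, adjusted p = 0.0138), with no overlap.

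The DCIR genes were higher in the joint by estimate and did not pass. Clec4a1 was at 0.85 (95% confidence interval −0.14 to 1.85), Clec4a2 at 1.00 (−0.14 to 2.14) and Clec4a3 at 0.97 (−0.11 to 2.05). These values rested on skin nonmigrated replicate 3. Without it they were 1.56, 1.69 and 1.76, with adjusted p = 0.00961, 0.0197 and 0.00767, and Clec12a was called at 1.83 (adjusted p = 0.000732). Clec10a and Mgl2 turned from −0.28 and −0.57 to 0.76 and 0.36 without that library, with adjusted p = 0.0413 and 0.249. Clec4d, Clec4n and Clec7a moved little, to −2.01, −1.66 and −2.06. Leaving out joint migrated replicate 1, a library of neither group that enters the shared estimate of the spread, made Clec4n the only gene called (adjusted p = 0.000437). The summed level of monocyte and macrophage markers was higher in the joint nonmigrated libraries (18850 to 23770 CPM) than in the skin ones (3836 to 12360 CPM). Only 1 of these 10 markers was higher at 0.05 and none lower, beside 5.45% of all genes tested called higher. The sum of neutrophil markers was higher in the joint too, with 6 of 8 higher at 0.05. Dendritic cell markers were lower in the joint (571.8 to 650.8 CPM against 923.4 to 1814 CPM), with 5 of 8 lower and 1 higher at 0.05, and so were T cell markers (122.4 to 252.5 CPM against 261.1 to 695.4 CPM), with 6 of 6 lower at 0.05. The part of these cells in the differences was not tested.

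Among migrated cells, joint and skin did not differ detectably in any of the 10 genes. None was called by edgeR or DESeq2, where edgeR called none of the 16777 genes tested (0%) and DESeq2 called 177. In edgeR, 16.5% of genes tested and 3 of the 10 had an unadjusted p under 0.05. Those were Clec4n (−1.34, 95% confidence interval −2.21 to −0.47, adjusted p = 0.12), Mgl2 (−1.23, −2.26 to −0.21, adjusted p = 0.213) and Clec4a3 (−1.25, −2.39 to −0.11, adjusted p = 0.258), each lower in the joint with no overlap of libraries. The widest interval of the other 7 was that of Clec4e, from −1.44 to 1.13, so differences of more than 2-fold in either direction remain within it. The spread among the joint migrated libraries was large, with Clec4d at 0.4107 CPM in replicate 1 and 2.809 CPM in replicate 3.

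Ratios between receptors of the same library do not depend on how many counts the library held. Clec7a and Clec12a lie within 130.1 kb on the same chromosome and have an activating and an inhibitory product. Per kilobase, the ratio of Clec7a to Clec12a was 5.12, 4.47 and 6.08 in joint nonmigrated libraries. In skin nonmigrated libraries it was 77.7, 76.6 and 16.3, above every joint nonmigrated library, and in skin steady-state libraries it was 0.793, 0.827 and 0.579. The ratio of Clec4d to Clec4e per kilobase was 2.34 ± 0.629 in joint nonmigrated and 4.74 ± 0.561 in skin nonmigrated cells, and 1.02 ± 0.131 in joint migrated and 1.57 ± 0.482 in skin migrated cells. Clec10a over Mgl2 was below 1 in both nonmigrated groups (0.43 ± 0.0754 in the joint, 0.332 ± 0.0252 in the skin) and above 1 in every steady-state library (3.76 ± 0.775 in the joint, 2.17 ± 0.866 in the skin). These ratios are given as values, without a test.

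**Figure D4:**
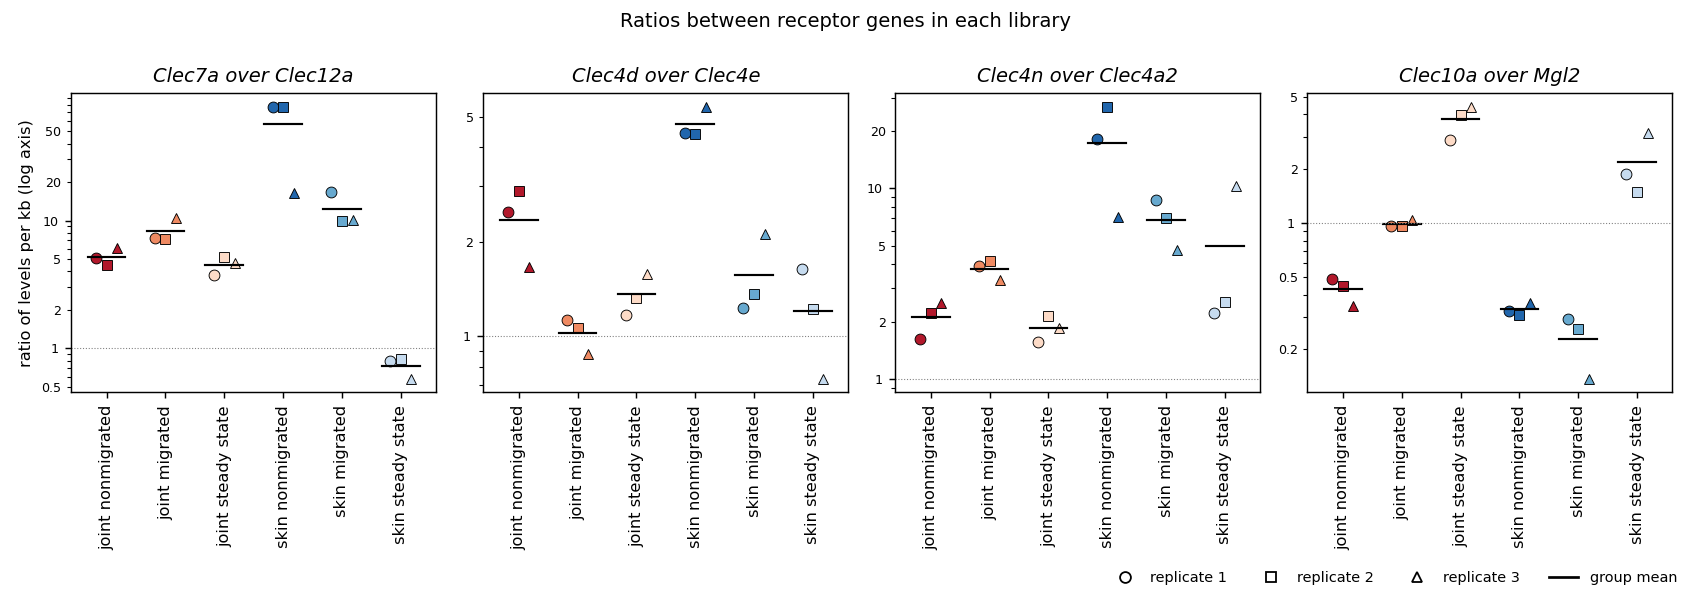
Ratio of the levels per kilobase of 2 receptor genes (vertical log axes, each panel with its own scale) in each library of the 6 groups (horizontal axis), with points shaped by replicate number, a bar at the group mean and a dotted line at a ratio of 1. Clec7a over Clec12a spans 0.579 in a skin steady-state library to 77.7 in a skin nonmigrated one, and Clec10a over Mgl2 is above 1 only in the steady-state libraries and in joint migrated replicate 3.

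In the steady-state nodes, 7 of the 10 genes were called higher on the joint side than on the skin side (Clec4d, Clec4e, Clec4n, Clec7a, Clec4a1, Clec4a2 and Clec4a3), where 1.4% of the 17107 genes tested among the lymph-node libraries were called higher. The median over the 10 genes was 3.38 on the log2 scale beside 0 over all genes tested. Clec4d was at 6.074, 9.156 and 9.652 CPM in joint and 0.2019, 0.2084 and 0.1222 CPM in skin steady-state libraries, 44.7-fold higher in the joint (log2 fold change 5.48, SE 0.623, adjusted p = 0.000107). Clec4e was at 16.09, 21.6 and 18.93 CPM and at 0.3813, 0.5327 and 0.5194 CPM (log2 fold change 5.29, SE 0.64, adjusted p = 0.000163). For each of the 7 genes the lowest joint library was above the highest skin library.

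Clec4n was at 6.096, 4.787 and 4.305 CPM in joint and 0.314, 0.2548 and 0.3055 CPM in skin steady-state libraries (log2 fold change 4.10, SE 0.49). Clec7a was at 22.6, 28.4 and 24.65 CPM and at 3.14, 2.988 and 2.169 CPM (log2 fold change 3.17, SE 0.367). Clec4a2, at 8.009, 4.615 and 4.815 CPM against 0.2916, 0.2084 and 0.06111 CPM, had 2 counts in skin steady-state replicate 3, below the floor. The remaining DCIR genes, Clec4a1 and Clec4a3, were 8.05-fold and 12.1-fold higher in the joint nodes.

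Clec10a, Mgl2 and Clec12a stood outside this pattern. Clec10a was at 4.205, 2.283 and 2.308 CPM in joint and 2.804, 2.524 and 2.261 CPM in skin steady-state libraries, which overlapped (log2 fold change 0.20, 95% confidence interval −0.41 to 0.81). Mgl2 was at 1.046, 0.4173 and 0.3772 CPM and at 1.077, 1.227 and 0.5194 CPM (−0.64, −1.47 to 0.20). Clec12a was at 12.68, 11.46 and 11.09 CPM and at 8.3, 7.573 and 7.853 CPM, without overlap, and its log2 fold change of 0.56 (0.07 to 1.06, adjusted p = 0.17) did not pass.

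The 7 calls rested on all 3 skin steady-state libraries being in the fit. Without skin steady-state replicate 1, 2 or 3 none of the 7 was called at 0.001, with adjusted p = 0.00129 to 0.00363, and the 7 estimates lay between 2.85 and 5.59. Leaving out joint steady-state replicate 1 took away the calls of Clec4a1 and Clec4a2, and leaving out joint steady-state replicate 2 or 3 that of Clec4a2. Neutrophil markers moved with these genes, with a summed level of 448.6 to 879.3 CPM in joint and 13.69 to 22.07 CPM in skin steady-state libraries. Monocyte and macrophage markers did too, at 603.7 to 833.4 CPM against 202.2 to 247.7 CPM, and the part of these cells was not tested.

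Most of the 10 genes were higher in inflamed migrated than in steady-state cells of the skin-draining node, and few were in the joint-draining node. Against the skin steady state, 8 of the 10 were called higher in skin migrated cells (all but Clec10a and Clec12a), where 16.6% of the 17107 genes tested were called higher. Against the joint steady state, Mgl2 was the only gene of the 10 called higher (12.4% of genes tested were higher) and Clec4d the only one called lower (3.5% were lower). The medians over the 10 genes were 3.72 in the skin and −0.49 in the joint, beside 0.00 and −0.02 over all genes tested. The plot of inflamed against steady-state nodes shows the difference between the sites.

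**Figure D5:**
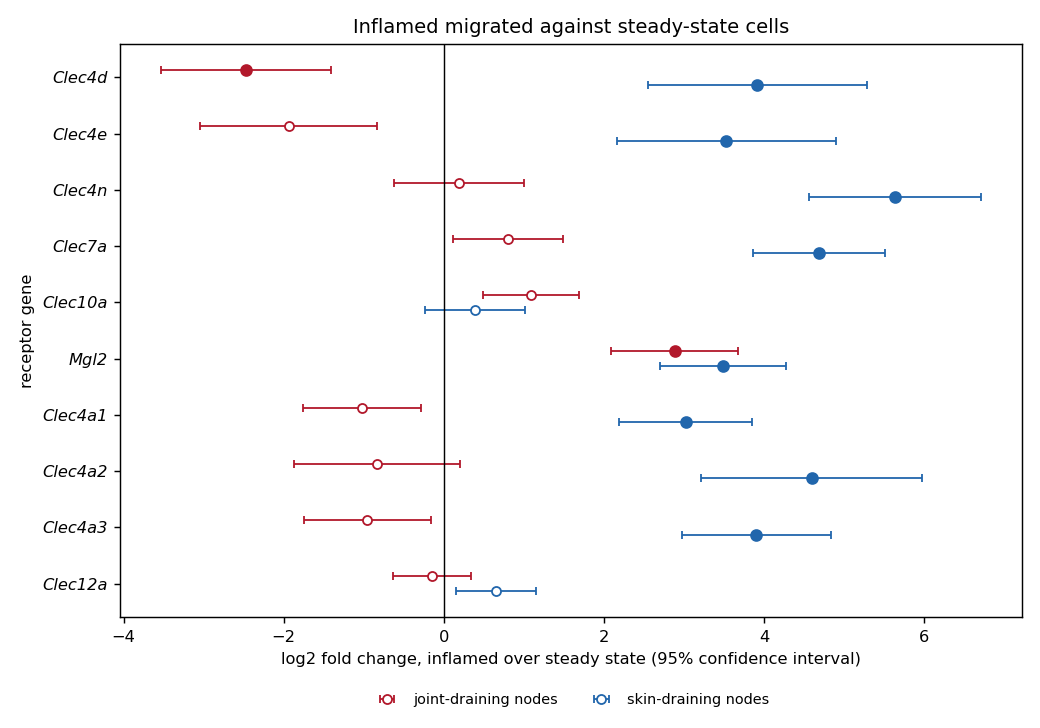
Log2 fold change of inflamed migrated over steady-state cells (horizontal axis) with its 95% confidence interval for each receptor gene (vertical axis), in joint-draining (red) and skin-draining nodes (blue), where filled points passed the threshold. The skin estimates run from 0.39 for Clec10a to 5.64 for Clec4n and the joint estimates from −2.47 for Clec4d to 2.88 for Mgl2.

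In the skin-draining nodes the largest rise was that of Clec4n, from 0.2548 to 0.314 CPM at steady state to 10.14 to 16.67 CPM in migrated cells, 49.8-fold (log2 fold change 5.64, SE 0.5, adjusted p = 4.79e-07), a value that rests on 14, 11 and 10 counts at steady state. Clec7a rose 25.7-fold (4.68, SE 0.385), Clec4a2 24.1-fold (4.59, SE 0.641) and Clec4d 15.1-fold (3.91, SE 0.634). Clec4a3 rose 15-fold, Clec4e 11.5-fold, Mgl2 11.2-fold and Clec4a1 8.11-fold, each with no overlap of libraries. The calls of Clec4d and Clec4e were the least firm of the 8. Clec4d lost its call without skin steady-state replicate 1 or 3 and Clec4e without any 1 skin steady-state library or without skin migrated replicate 1 or 3, with adjusted p of at most 0.0026. Clec12a was at 0.65 (95% confidence interval 0.15 to 1.16, adjusted p = 0.0251), with no overlap, and Clec10a at 0.39 (−0.24 to 1.02, adjusted p = 0.255).

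In the joint-draining nodes Mgl2 went from 1.046, 0.4173 and 0.3772 CPM at steady state to 3.449, 5.186 and 4.738 CPM in migrated cells, 7.37-fold higher (log2 fold change 2.88, SE 0.369, adjusted p = 2.55e-05). Steady-state replicate 1 was the highest of its group, and without it the change was 3.51. Clec4d fell by 2.47 on the log2 scale (SE 0.492, adjusted p = 0.000969), close to the threshold. Its call was lost in 9 of the 12 fits that left out 1 lymph-node library (adjusted p up to 0.00684), and stayed only without skin migrated replicate 2, joint migrated replicate 1 or joint migrated replicate 3. Clec4e was at −1.94 (SE 0.512, adjusted p = 0.00658), with every migrated library below every steady-state one. It was called without joint migrated replicate 3, at −3.02 (adjusted p = 5.6e-05).

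The other 7 genes did not pass in the joint. Clec10a was at 1.09 (95% confidence interval 0.49 to 1.69, adjusted p = 0.00547) and Clec7a at 0.80 (0.11 to 1.49, adjusted p = 0.0525). Clec4a1, Clec4a2 and Clec4a3 lay between −1.02 and −0.84. Clec4n and Clec12a were near 0, at 0.19 (−0.62 to 1.00) and −0.15 (−0.64 to 0.34). Neutrophil markers were lower in joint migrated (40.63 to 102.8 CPM) than in joint steady-state libraries (448.6 to 879.3 CPM). In the skin they were at 16.93 to 34.09 CPM in migrated and 13.69 to 22.07 CPM in steady-state libraries. Monocyte and macrophage markers were at 756.1 to 1102 CPM in skin migrated and 202.2 to 247.7 CPM in skin steady-state libraries. B cell markers were lower in migrated than in steady-state libraries, at 630.3 to 878.9 CPM against 3724 to 4024 CPM in the joint and 106 to 189.9 CPM against 2413 to 3247 CPM in the skin. The summed level of dendritic cell markers was higher, at 2458 to 5893 CPM against 1003 to 1305 CPM in the joint. In the skin it was at 4440 to 6132 CPM against 805 to 1043 CPM. Of these 8 markers, 5 were called higher in the joint and 4 in the skin, and none lower. Beside them, 12.4% and 16.6% of all genes tested were called higher. The part of these cells in the changes was not tested.

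The difference between the sites in this change was then tested as an interaction, which was added after the opposite directions of Clec4d and Clec4e had been seen. It equals the joint-against-skin difference among migrated cells minus that among steady-state cells. The interaction is therefore not separate from the steady-state difference given above. Of the 10 genes, 5 were called lower, that is with a smaller rise or a fall in the joint, where 0.696% of the 17107 genes tested were called lower. These were Clec4d (−6.39, SE 0.802), Clec4n (−5.45, SE 0.622), Clec4a3 (−4.86, SE 0.563), Clec4a1 (−4.04, SE 0.515) and Clec7a (−3.88, SE 0.484), with adjusted p = 0.00022 to 0.000421. Clec4e (−5.47, adjusted p = 0.00126) and Clec4a2 (−5.43, adjusted p = 0.00122) were just outside the threshold. Clec10a, Mgl2 and Clec12a were at 0.70, −0.60 and −0.80, and their intervals were −0.17 to 1.57, −1.70 to 0.49 and −1.51 to −0.10. None of the 5 was called without skin steady-state replicate 1, 2 or 3 (adjusted p = 0.00116 to 0.00256), with estimates between −6.45 and −3.70. Only 2 were called without skin migrated replicate 1 or 3, joint migrated replicate 2 or joint steady-state replicate 2 or 3, 3 without joint steady-state replicate 1 and 7 of the 10 genes without joint migrated replicate 1 or 3. Clec4d was at −7.22 without joint migrated replicate 3.

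Genes that act with these receptors were followed as lists, beside the 12.6% (joint) and 12.4% (skin) of all genes tested that were called lower in migrated cells. Of 8 adaptors and kinases, 6 were lower in joint migrated than in joint nonmigrated cells and 6 in the skin. Fcer1g, the adaptor of Mincle, MCL and Dectin-2, was at 958.3, 917.8 and 763.2 CPM in joint nonmigrated and 69.05, 85.29 and 78 CPM in joint migrated libraries, a change of −3.50 (SE 0.152, adjusted p = 8.2e-08). In the skin it changed by −3.60. Tyrobp, the adaptor DAP12 of other myeloid receptors, changed by −2.54 in the joint and −2.12 in the skin, and Syk, the kinase that binds these adaptors, by −1.48 and −2.15. The fall of Fcer1g was smaller than those of the 3 receptors that use it, a comparison of estimates that was not tested.

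Of the 7 genes of the CARD9 complex and NF-kB, Card9 was lower in joint migrated cells (−2.36, SE 0.236, adjusted p = 8.63e-06) and did not pass in the skin (−1.13, adjusted p = 0.0014). Rubcn, whose product Rubicon binds CARD9, was higher in migrated cells at both sites (1.47 in the joint, 1.76 in the skin), and the other 5 did not pass at either site. The 3 phosphatases Ptpn6, Ptpn11 and Inpp5d, which act behind inhibitory motifs, were not called at either site. Of 9 cytokine genes that these receptors can induce, 3 were lower in joint migrated cells, among them Cxcl2 (−5.99) and Il1b (−3.73), and 5 in skin migrated cells, among them Cxcl2 (−7.24) and Il6 (−5.48), again beside 12.6% and 12.4% of all genes tested called lower.

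Among 24 other C-type lectins 21 passed the filter, and 9 were lower in migrated cells at each site with none higher, where 12.6% of all genes tested were lower in the joint and 12.4% in the skin. Mrc1, the macrophage mannose receptor, changed by −7.32 in the joint and −6.55 in the skin, and Clec5a, a receptor that signals through DAP12, by −6.30 and −5.75. Clec12b, an inhibitory relative of Clec12a, was at 0.3557 to 0.5714 CPM in joint nonmigrated libraries and had 0 counts in all 3 joint migrated ones. In the skin it was at 2.287 to 6.49 CPM in nonmigrated libraries and had at most 1 count in each migrated one, so no fold is given for it. Between nonmigrated cells Cd207, which encodes the Langerhans cell lectin langerin, was the only gene of the 5 lists called, lower in the joint (adjusted p = 0.00072). It was at 0.06645 to 0.2105 CPM in joint and 1.352 to 4.619 CPM in skin nonmigrated libraries, and its joint counts of 4, 2 and 7 were near the floor. No list gene was called without skin nonmigrated replicate 1 or 2, any 1 joint nonmigrated or joint migrated library or skin migrated replicate 3, and 7 were called without skin nonmigrated replicate 3.

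Against the steady state, 12.4% of all genes tested were called higher and 3.5% lower in the joint, and 16.6% were called higher in the skin. Of the 24 other lectins 16 passed the filter among the lymph-node libraries. Mrc2, a collagen-binding relative of Mrc1, rose by 5.50 in joint and 5.10 in skin nodes and was 1 of 4 other lectins called higher in the joint, with Clec9a (2.35), a dendritic cell receptor for dead cells, and of 5 called in the skin, with Clec5a (4.79). Card9 rose by 1.57 in the joint and 3.33 in the skin. Fcer1g and Tyrobp rose at both sites, by 1.04 and 1.46 in the joint and 3.17 and 3.05 in the skin, while Syk (−1.01) and Plcg2 (−1.10) fell in the joint, as did the phosphatase gene Ptpn6 (−1.02). Of the cytokine genes, 4 rose in the joint and 8 in the skin, among them Il10 (2.65 and 3.03). Cxcl1 rose by 4.65 in the joint, and in the skin it was at 2.098 to 10.52 CPM in migrated libraries and under the floor in the steady-state ones. Il12b was at 9.055 to 38.38 CPM in joint and 20.53 to 32.27 CPM in skin migrated libraries and at or under the floor in all 6 steady-state libraries.

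Between the steady-state nodes, Clec5a (4.34), Fcer1g (1.82), Tyrobp (1.45), Cxcl2 (4.85) and Il1b (4.70) were higher on the joint side, the only 5 genes of these lists that passed. Without any 1 skin steady-state library 1 list gene passed, without joint steady-state replicate 2 or 3 there were 2, and without joint migrated replicate 1 there were 8. Clec5a (−5.98) and Fcer1g (−2.12) passed the interaction of site and inflammation in the same direction as the 5 receptors. In that interaction 1 list gene passed without any 1 skin steady-state library, skin migrated replicate 3 or joint steady-state replicate 2 or 3, and 5 and 6 passed without joint migrated replicates 1 and 3. These 5 and 2 genes out of 43 tested stand beside shares of 1.44% and 0.889% of all 17107 genes called in either direction.

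Across the 18 libraries the levels of the 10 genes, as log2 of CPM plus 1, rose and fell together, with Pearson's r of 0.85 to 0.998 over the 45 pairs (median 0.933). The libraries share their groups, so these values mostly restate the gap between nonmigrated and lymph-node cells. Among 15134 genes with a mean of at least 1 CPM in some group, the genes most like Clec4d were Cd300lf (r = 0.994), Fpr2 (0.993) and Ccr1 (0.992), and those most like Clec4e were Fpr2 (0.994), Emilin2 (0.994) and Nlrp3 (0.993). Clec4n was followed most closely by Ifi204 (0.991), Ocstamp (0.991) and Clec7a (0.99), and Clec7a by Gm49339 (0.992), Ptafr (0.99) and Clec4n (0.99). The DCIR genes were nearest to each other and to Csf1r. Clec4a1 and Clec4a2 had r = 0.998 with each other and 0.995 each with Csf1r, the receptor for macrophage colony-stimulating factor. Clec4a3 was nearest to Sirpb1a (0.994), Clec4a1 (0.993) and Clec4a2 (0.99), Clec12a to Trem2 (0.996), Acer3 (0.995) and Tbxas1 (0.994), Clec10a to Lpar1 (0.987), Pf4 (0.987) and Adcy4 (0.984), and Mgl2 to Creg1 (0.987), Plcb3 (0.986) and Slamf8 (0.986). Sirpb1c was the remaining near neighbour of Clec4a1 (0.993) and Clec4a2 (0.995).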

How the data were processed

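The 6 groups held 3 libraries each. The authors sequenced them in pairs of 100-base reads, trimmed reads with Trim Galore, aligned them to mm10 with TopHat2 and counted reads per Ensembl 87 gene with HTSeq, and the deposited table holds these raw counts. By default, HTSeq does not count reads with more than 1 alignment or reads ambiguous between genes. Here 5 summary entries were removed, symbols came from GENCODE M21 (49326 of 49585 identifiers matched) and levels were CPM with TMM scaling, also divided by merged exon length. Comparisons used edgeR 4.0.16 (R 4.3.3), quasi-likelihood F tests with group as the factor, genes filtered at a minimum count of 10, and Benjamini-Hochberg adjustment over all genes tested. The 12 inflamed libraries shared 1 fit and the 12 lymph-node libraries another. Calls needed an absolute log2 fold change above 1 together with an adjusted p under 0.001. Every receptor gene was named, with at least the 2 called list genes of largest change in each direction and the 3 genes most correlated with each receptor. The scripts were tested on simulated data. DESeq2 1.42.0, the threshold of 0.05, other filters and scalings, other sets of samples, a replicate block and leaving out each library were alternatives. The genes and lists were chosen with earlier results of these data known. The sources used here do not state whether replicate pools came from separate experiments, so p-values measure only the spread between libraries, which may be partly technical, and replicates of a group differed by more than sampling noise.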

Additional observations from a re-analysis of the deposited data

Results flagged for a closer look

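The change from steady-state to inflamed migrated cells differed between joint and skin for 5 receptor genes, by the interaction of site and inflammation in edgeR. On the log2 scale, with the skin change subtracted from the joint change, the estimates were −6.386 for Clec4d, −5.448 for Clec4n, −4.858 for Clec4a3, −4.042 for Clec4a1 and −3.883 for Clec7a. Clec4d fell in the joint-draining node and rose in the skin-draining node, whereas Clec4n, Clec4a3, Clec4a1 and Clec7a rose in the skin and did not pass the test in the joint. The comparison was chosen after the data were seen, and without any 1 skin steady-state library none of the 5 passed. It is not separate from the comparison of steady-state nodes, in which all 5 were higher in the joint (3.008 to 5.484). Among migrated cells, joint against skin, the 5 lay between −1.34 and −0.701 and none was called. Handling and site cannot be told apart in the steady-state groups, whose sample names differ between joint and skin. The skin migrated libraries also stood apart from the other lymph-node libraries in depth and in the share of reads in no gene, as given above.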

How the results depend on the processing

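Over the 10 receptor genes, 9 comparisons and all alternatives, 1646 of 1780 values kept their direction and side of the threshold, 92 lost the call, 28 gained it and 14 changed sign. Genes that stayed uncalled with the same sign count among those kept. The threshold of 0.05 was applied to the main fit, so it could neither remove a call nor change a sign. With 10 receptor genes called lower, both migration comparisons kept 9 to 10 in every fit that left out 1 library. For joint against skin nonmigrated cells (0 called), 4 receptor genes were called at 0.05, 4 by DESeq2, 1 with all 18 libraries and 0 to 1 with 1 library left out. Over all 16777 genes tested there, 2400 were called at 0.05 and 1550 by DESeq2. For joint migrated against steady state (2 called), there were 5 at 0.05, 1 with DESeq2 size factors, 1 with 10 counts in every library of a group, 1 with only the groups compared and 1 to 3 with 1 library left out. For skin migrated against steady state (8 called) leaving out 1 library gave 6 to 8, and for the steady-state nodes (7) and the site by inflammation interaction (5), 0 to 7 each. The cause of these changes was not tested.

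Deviations from the group mean in same-numbered nonmigrated and migrated libraries had r of 0.021 to 0.254 in the joint and 0.073 to 0.173 in the skin. Libraries of different number had r of −0.218 to 0.038 and −0.123 to 0.029. Deviations from the mean of 3 libraries sum to 0, so a positive r in some pairs requires a negative r in others. Same-numbered joint and skin migrated libraries, from different sites, had r of 0.093 to 0.19. Over the remaining pairs of groups, same-numbered libraries had r from −0.353 to 0.057. The main fits did not take the numbers as pairs, and a block was fitted as an alternative. With a replicate block within each site, receptor genes called were 10 in each migration comparison, 0 between sites, 2 and 8 against the joint and skin steady state, 4 between the steady-state nodes and 2 in the site by inflammation interaction. Under the block Clec10a was at 0.003 for joint against skin nonmigrated cells, and list genes called were 0 there, 3 between the steady-state nodes and 3 in the interaction.

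Genes of the 5 lists called numbered 20 in joint and 21 in skin migration, and 14 to 25 and 15 to 24 with 1 library left out. In skin migration they were 35 at 0.05 and 32 by DESeq2. Between nonmigrated sites (1 called) they were 12 at 0.05, 5 by DESeq2, 4 with no filter, 0 with only the groups compared, 4 with all 18 libraries and 0 to 7 with 1 left out. For the site by migration interaction (0) they were 4 at 0.05 and 1 by DESeq2. Between the steady-state nodes (5) they were 12 at 0.05, 10 by DESeq2, 11 with no filter, 8 with only the groups compared and 1 to 8 with 1 left out. For the site by inflammation interaction (2) they were 14 at 0.05, 9 by DESeq2, 13 with no filter and 1 to 6 with 1 left out. Against the joint steady state (14) and the skin steady state (16) leaving out 1 library gave 9 to 15 and 15 to 18, with 9 when joint steady-state replicate 2 or 3 was left out.

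Leaving out 1 library changed the sign of log2 fold changes near 0, none of them called. The ranges were −0.68 to 0.759 for Clec10a and −0.939 to 0.362 for Mgl2 (nonmigrated, joint against skin), −1.223 to 0.33 for Clec4e and −0.509 to 0.027 for Clec12a (migrated, joint against skin), −0.385 to 1.169 for Clec4e and −0.05 to 0.723 for Clec4n (site by migration), −0.176 to 0.567 for Clec4n and −0.452 to 0.059 for Clec12a (joint migrated against steady state), −0.159 to 0.349 for Clec10a (steady-state nodes) and −0.812 to 0.077 for Mgl2 (site by inflammation). The interaction of site and inflammation, with its alternatives, was chosen after seeing the data. Depth limits Clec4d, Clec4n, Clec4e and Clec4a2 in the skin steady state, where the lowest counts were 4, 10, 17 and 2.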
